A study of Mus musculus with 16 samples.

Results

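The polyamine genes described here are the 9 listed for synthesis and turnover: *Odc1*, *Amd1*, *Srm*, *Sms*, *Azin1*, *Oaz1*, *Oaz2*, *Sat1* and *Smox*. They were taken by symbol from a table of 31274 genes, and all 9 had a mean FPKM (a level of fragments scaled by transcript length and library size) above 1 in at least 1 group, as did 15988 genes in all. RNA-seq was performed on the seminal vesicles (SV), dissected free of the anterior prostate, of 16 male C57BL/6 samples at week 5, which is puberty. WT-veh pups were given corn oil and WT-DES pups the synthetic oestrogen diethylstilbestrol (DES) at 2 µg per pup per day, by subcutaneous injection on days 1 to 5 after birth. The αERKO-veh and αERKO-DES pups had the same injections and carried a disrupted *Esr1* gene, which encodes oestrogen receptor α (ERα), in every tissue. Each group had 4 samples. The αERKO pups came from heterozygous breeding and the WT pups from purchased pregnant females, so genotype and source of the animals cannot be told apart. The study's RNA methods describe pools of SVs for WT-DES and single mice for the other groups, and which RNA-seq samples were pools is not given in the sources used here.

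Polyamines are small positively charged molecules that bind nucleic acids and are needed for growth and protein synthesis, and the prostate and SV are known for making and secreting large amounts of them. Ornithine decarboxylase (*Odc1*) makes putrescine, and spermidine synthase (*Srm*) and spermine synthase (*Sms*) add aminopropyl groups that are supplied by S-adenosylmethionine decarboxylase (*Amd1*). Antizymes (*Oaz1*, *Oaz2*) bind ODC and send it to the proteasome, and antizyme inhibitor (*Azin1*) frees ODC by binding antizyme in its place. Acetylation by *Sat1* and oxidation by *Smox* turn the higher polyamines back.

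Promoter sequences are shown for the enzymes at the head of the pathway, *Odc1* and *Amd1*, and for *Sat1*, the one member that was higher after DES in WT. They are RefSeq promoter sequences on GRCm38.p6, limited to the bases before the gene start, at chr12:17544623-17544793 on the plus strand for *Odc1*, chr10:40302189-40302438 on the minus strand for *Amd1* and chrX:155216450-155216699 on the minus strand for *Sat1*. Capitals mark the GC box GGGCGG or its complement CCGCCC.
Odc1: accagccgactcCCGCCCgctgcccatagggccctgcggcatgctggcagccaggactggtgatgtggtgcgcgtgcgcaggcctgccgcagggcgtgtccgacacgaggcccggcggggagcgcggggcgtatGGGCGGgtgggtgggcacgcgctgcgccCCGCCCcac
Amd1: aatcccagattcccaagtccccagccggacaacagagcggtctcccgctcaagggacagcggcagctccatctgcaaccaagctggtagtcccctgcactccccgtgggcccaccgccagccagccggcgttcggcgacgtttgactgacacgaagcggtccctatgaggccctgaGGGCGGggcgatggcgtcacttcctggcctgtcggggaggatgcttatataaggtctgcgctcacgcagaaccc
Sat1: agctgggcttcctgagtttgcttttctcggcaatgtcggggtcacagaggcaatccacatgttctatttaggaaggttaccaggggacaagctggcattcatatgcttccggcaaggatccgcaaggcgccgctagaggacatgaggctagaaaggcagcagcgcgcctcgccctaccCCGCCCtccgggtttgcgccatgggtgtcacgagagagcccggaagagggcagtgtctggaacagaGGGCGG
RefSeq promoter windows, each from 250 bases before to 50 after a start, were matched for 7 of the 9 genes in 8 windows, and *Srm* and *Azin1* were not matched. The GC box was found on either strand 4 times in the *Odc1* window, once in that of *Amd1*, 2 times in that of *Sat1*, 6 times in that of *Smox*, 4 times in that of *Oaz2* and 4 times in 1 of the 2 windows of *Sms*, while 35.7% of 32851 promoter windows of the same length held it. The *Oaz1* window held no GC box and 1 TATAAA, which 13.6% of all windows held. The E-box CACGTG, in 7.15% of all windows, was found once, in the other *Sms* window. None of the 8 windows held TGACGTCA (the cAMP response element, in 1.79% of all windows) or the full palindrome of the oestrogen response element (in 0.07%). All motifs were searched on both strands, and a match in these letters is a description of the window only. The GC box was thus found in the windows of *Odc1*, *Amd1* and *Smox*, which were called lower after DES, and of *Sat1*, which was higher, but not in that of *Oaz1*, which was called lower.

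The targeted gene was lower in every αERKO sample than in every WT sample: *Esr1* ranged over 8.74 to 19.64 FPKM in WT-DES and 2.81 to 4.55 in WT-veh, and over 0.91 to 1.64 in αERKO-DES and 1.30 to 1.75 in αERKO-veh. The 8 SV secretory protein genes checked, which mark the tissue, summed to 2436 to 7951 FPKM in WT-DES, 49597 to 57994 in WT-veh, 33532 to 63298 in αERKO-DES and 30143 to 47254 in αERKO-veh. Total FPKM per sample ran from 375207 to 437619 in WT-DES and from 590446 to 652708 in WT-veh, with αERKO-DES at 531467 to 622477 and αERKO-veh at 479045 to 558591, and read depth is unknown. Within WT-DES, sample 3 had 14.5% of its FPKM in the 20 genes that are most abundant over all samples, against 1.61% to 6.57% in the other 3, and sample 1 had 3580 FPKM of smooth muscle markers, against 791 to 1256.

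To examine the change with neonatal DES when ERα is present, WT-DES was compared with WT-veh. Among the synthetic enzymes, *Srm* was 5.32-fold, *Odc1* 3.13-fold and *Amd1* 3.03-fold lower in mean FPKM after DES. The antizyme *Oaz1* was 1.87-fold, *Azin1* 1.81-fold and *Smox* 1.53-fold lower. *Sat1* was 1.27-fold higher and *Sms* 1.24-fold lower, and *Oaz2* was lower by a difference that did not pass the test. A gene was called when the Benjamini-Hochberg adjusted p of limma on log2(FPKM + 1), over all genes tested, was at most 0.05 and the ratio of mean FPKM at least 1.5. By this rule 6 of 9 genes were called, all 6 lower, while 52.7% of all genes tested were called and 23.9% were called lower. At any fold 8 of 9 passed, with 7 lower and 1 higher, against 73.8% of all genes and 37.3% lower. The samples of the groups did not overlap for 8 of the 9, as for 66.7% of all genes. The median log2 change was -0.82 over the 9 genes and -0.01 over all genes. In bulk tissue, fewer cells of a type and less RNA per cell cannot be told apart.

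**Figure D1:**
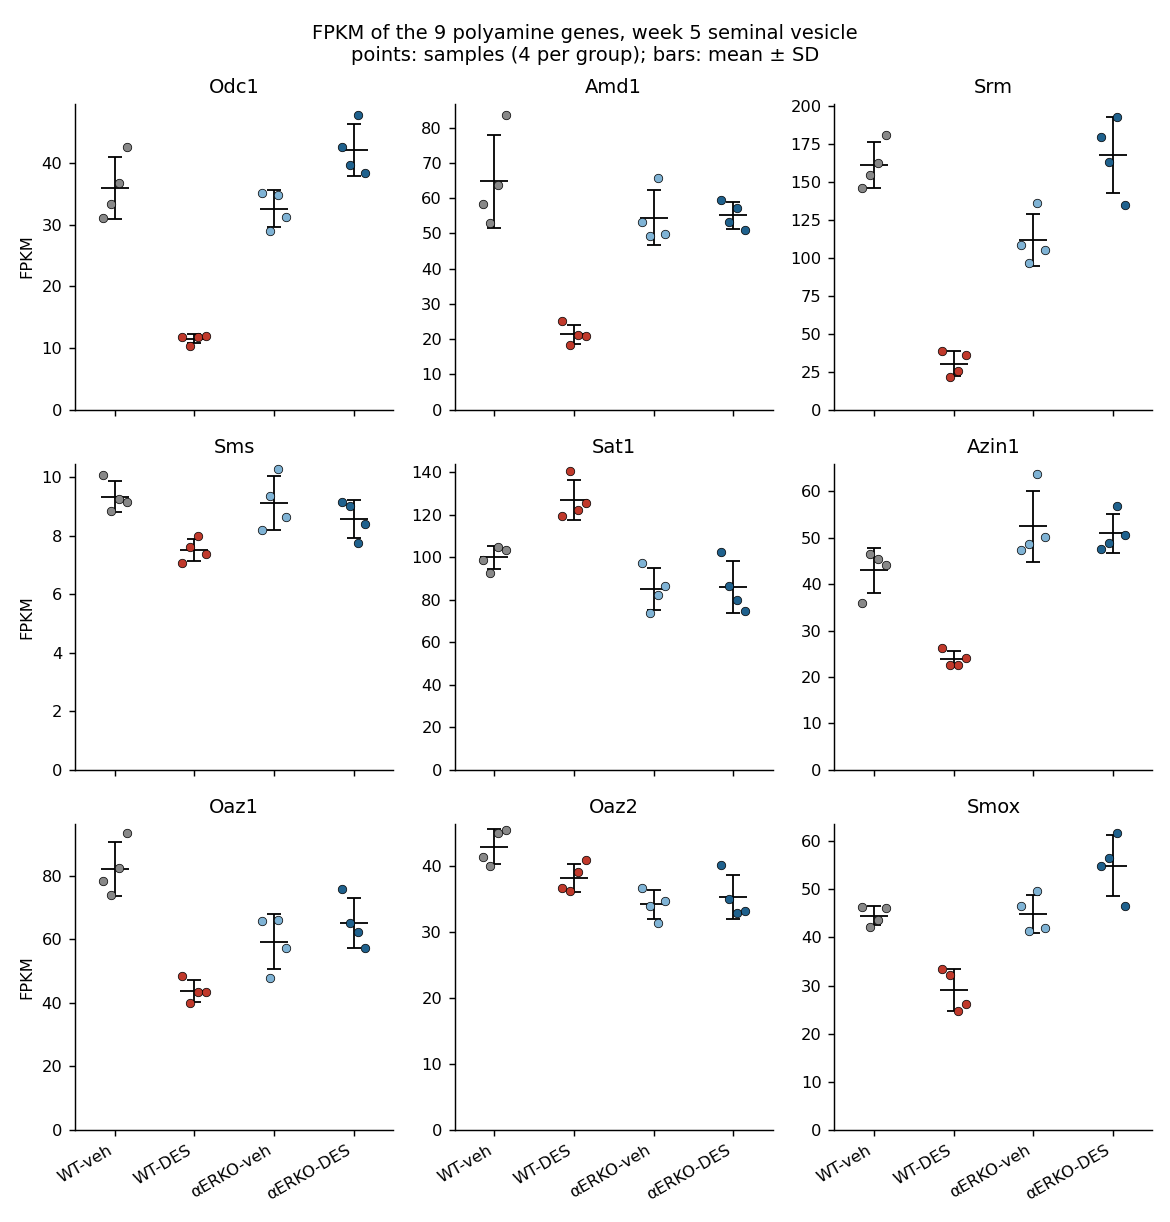
FPKM (y axis, from 0) of the 9 polyamine genes in the 4 groups (x axis) at week 5, with 1 point per sample and bars for the mean ± SD of 4 samples. The WT-DES points lie below all other points for Odc1, Amd1, Srm, Azin1 and Smox, with Srm at 21.4 to 38.3 against 96.6 to 193 elsewhere, and above all others for Sat1.

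*Odc1* (chromosome 12, 17544794 to 17551505), which encodes the enzyme that opens the pathway, was 31.01, 33.31, 36.72 and 42.69 FPKM in the WT-veh samples and 11.82, 10.36, 11.83 and 11.88 in the WT-DES samples. Every WT-DES sample was below every WT-veh sample, and the means were 35.9 ± 5.08 and 11.5 ± 0.742 (SD, n = 4 each). The log2 change was -1.56 ± 0.098 (SE, limma adjusted p = 4.87e-09). In αERKO the samples were 35.21, 29.01, 34.88 and 31.33 FPKM without DES and 42.54, 39.76, 47.78 and 38.39 with DES. All 4 αERKO-DES samples were above all 4 αERKO-veh samples, the opposite side from WT, although the change of 0.36 ± 0.098 (log2, SE) did not pass the test (limma adjusted p = 0.0574).

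*Amd1* (chromosome 10, 40287458 to 40302186) supplies the aminopropyl donor. Its samples were 58.47, 53.09, 63.88 and 83.58 FPKM in WT-veh and 25.03, 18.39, 21.13 and 20.86 in WT-DES. No WT-DES sample reached the lowest WT-veh sample, and the log2 change was -1.54 ± 0.13 (SE, limma adjusted p = 8.31e-08). The αERKO-veh samples were 53.26, 49.14, 65.80 and 49.85 FPKM and the αERKO-DES samples 59.35, 53.35, 57.23 and 50.87. These groups overlapped, with a log2 change of 0.03 and a 95% confidence interval from -0.25 to 0.30. *Amd1* shares 99.6% of 3202 aligned bases with the single-exon copy *Amd2* (chromosome 10, 35708675 to 35711892), so how fragments were divided between them is uncertain. *Amd2* was 20.2 ± 1.77 FPKM in WT-veh and 9.72 ± 2.11 in WT-DES (log2 change -1.004 ± 0.16, limma adjusted p = 3.69e-05), and the values of the copies are not independent.

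*Srm* (chromosome 4, 148591503 to 148594993) makes spermidine from putrescine and had the largest change of the 9 genes. Its WT-veh samples were 146.11, 154.31, 162.23 and 181.03 FPKM and its WT-DES samples 38.33, 21.40, 25.55 and 35.70. The log2 change was -2.41 ± 0.17 (SE, limma adjusted p = 1.19e-08), and the highest WT-DES sample was far under the lowest WT-veh sample. In αERKO-veh *Srm* was 108.04, 96.56, 135.95 and 104.93 FPKM, below every WT-veh sample, and in αERKO-DES it was 179.45, 162.89, 192.77 and 134.41. The αERKO-DES samples thus spanned the WT-veh level and overlapped αERKO-veh at 1 sample, with a log2 change with DES of 0.58 ± 0.17 (SE, limma adjusted p = 0.0656).

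*Sms* (chromosome X, 157443855 to 157492287), which makes spermine from spermidine, was the lowest of the 9 genes in all groups. It was 10.08, 8.84, 9.25 and 9.16 FPKM in WT-veh and 7.07, 7.60, 7.98 and 7.37 in WT-DES. The groups did not overlap, but the log2 change of -0.28 ± 0.076 (SE, limma adjusted p = 0.00388) was below the fold threshold. Rescaling to equal totals without the 20 most abundant genes turned this change to 0.11 (limma adjusted p = 0.296). The αERKO samples were 8.18 to 10.29 FPKM without DES and 7.74 to 9.14 with it, with an overlap and a log2 change of -0.08 (95% confidence interval from -0.24 to 0.08).

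Among the regulators of ODC, *Azin1* (chromosome 15, 38487427 to 38519266) was 35.92, 46.47, 45.33 and 44.16 FPKM in WT-veh and 26.14, 22.52, 22.48 and 24 in WT-DES. All WT-DES samples were lower, by a log2 change of -0.82 ± 0.10 (SE, limma adjusted p = 3.70e-06). The αERKO-veh samples were 47.36, 48.64, 63.85 and 50.15 FPKM and the αERKO-DES samples 47.53, 48.85, 56.87 and 50.58. Every αERKO sample, with or without DES, was above every WT-veh sample, while DES in αERKO left the groups overlapping (log2 change -0.04, 95% confidence interval from -0.25 to 0.18).

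*Oaz1* (chromosome 10, 80826656 to 80829290), the main antizyme in most tissues, was 78.17, 73.75, 82.41 and 93.50 FPKM in WT-veh and 48.50, 39.81, 43.30 and 43.26 in WT-DES. The log2 change was -0.89 ± 0.11 (SE, limma adjusted p = 4.31e-06) with no overlap, so the gene for the inhibitor of ODC was lower together with that for ODC. The αERKO samples were 65.72, 47.85, 65.95 and 57.27 FPKM without DES and 75.92, 65.20, 62.41 and 57.29 with it, mostly between the samples of WT-veh and WT-DES. The change with DES in αERKO was 0.14 on the log2 scale (95% confidence interval from -0.10 to 0.38).

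*Oaz2* (chromosome 9, 65668001 to 65690300), another antizyme, lay between 31.49 and 45.49 FPKM in all 16 samples. It was 40.09 to 45.49 FPKM in WT-veh and 36.35 to 40.93 in WT-DES, which overlapped. Its log2 change of -0.16 had a 95% confidence interval from -0.32 to -0.01, but the limma adjusted p over all genes was 0.0537. It passed as lower with sample weights (limma adjusted p = 0.0440), in a model of the 2 groups alone (0.0458) and without WT-veh sample 2, WT-DES sample 4, αERKO-veh sample 3 or αERKO-DES sample 1 (0.0290 to 0.0491). The sign depended on scaling: the change was 0.19 with quantile normalization (limma adjusted p = 0.0270) and 0.26 with equal totals without the 20 most abundant genes (limma adjusted p = 0.00448). The αERKO samples lay at 31.49 to 36.77 FPKM without DES and 32.96 to 40.24 with it.

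On the turnover side, *Sat1* (chromosome X, 155213132 to 155216449), the acetyltransferase that starts polyamine breakdown and export, was 98.55, 92.70, 104.74 and 103.36 FPKM in WT-veh and 119.52, 140.51, 122.00 and 125.39 in WT-DES. Every WT-DES sample was above every sample of the other 3 groups. The log2 change of 0.34 ± 0.099 (SE, limma adjusted p = 0.00614) was under the fold threshold, and it was 0.70 with a correction for transcript length, 0.78 with equal totals and 1.00 with quantile normalization. In αERKO *Sat1* was 97.31, 73.56, 82.13 and 86.36 FPKM without DES and 102.44, 86.57, 80.06 and 74.67 with DES, with an overlap and a log2 change of 0.02 (95% confidence interval from -0.20 to 0.23).

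*Smox* (chromosome 2, 131491496 to 131525922), which oxidises spermine to spermidine, was 46.34, 42.28, 43.53 and 46.05 FPKM in WT-veh and 33.53, 32.17, 24.75 and 26.16 in WT-DES. The log2 change was -0.61 ± 0.10 (SE, limma adjusted p = 8.42e-05) with no overlap between these groups. The call was a narrow one: the ratio of means, 1.53, went under 1.5 without WT-DES sample 3 or sample 4, *Smox* was not called under any of the 4 other scalings, and with equal totals the log2 change was -0.18 (limma adjusted p = 0.0636). In αERKO *Smox* was 46.56, 41.31, 49.69 and 42.01 FPKM without DES and 54.89, 56.61, 61.71 and 46.60 with DES. In αERKO-DES 3 of the 4 samples were above all others in the study, at a log2 change of 0.28 (limma adjusted p = 0.116).

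Cell type markers moved with DES in WT. All 11 leukocyte markers were called higher, and their summed level was 541 to 818 FPKM in WT-DES against 106 to 182 in WT-veh, 63.4 to 93.0 in αERKO-DES and 74.6 to 113 in αERKO-veh. All 6 fibroblast markers were called higher (1916 to 2091 FPKM against 731 to 881 in WT-veh), and 5 of 6 epithelial markers were called lower (711 to 831 against 1409 to 1584). The 8 SV secretory genes and the 5 anterior prostate markers were all called lower, the latter at 67.7 to 436 FPKM in WT-DES against 4527 to 9929 in WT-veh. Smooth muscle had 5 of 6 markers called lower, adipose tissue 4 of 6 higher, skeletal muscle 2 of 8 lower and dividing cells 1 of 6 higher. Every marker was above 0 in at least 1 sample of each group. All 11 leukocyte markers, and all 5 prostate markers the other way, were called under each of the 4 other scalings, whereas with quantile normalization epithelial calls were 1 higher and 1 lower and no smooth muscle marker was called. The part of these shifts in the changes of the polyamine genes was not tested.

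The scaling of the samples bore on the counts. With equal totals without the 20 most abundant genes, the median change of all genes moved up by 0.37 on the log2 scale, and the calls over all genes went from 4613 higher and 3815 lower to 6745 higher and 1831 lower. Among the 9 genes the calls were then *Odc1*, *Amd1* and *Srm* lower and *Sat1* higher. With quantile normalization *Odc1*, *Amd1*, *Srm*, *Azin1* and *Sms* were called lower and *Sat1* higher, and with a correction for transcript length *Sat1* was called higher in place of *Smox* lower. *Odc1*, *Amd1* and *Srm* were called lower under all 5 scalings.

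**Figure D2:**
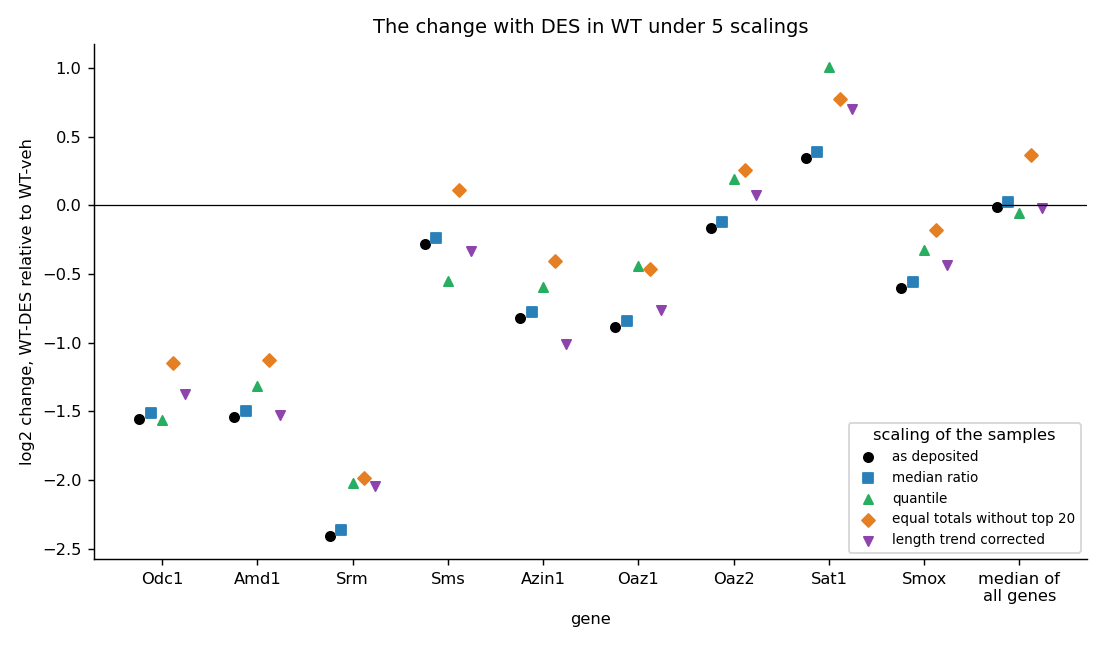
log2 change of each polyamine gene (x axis) in WT-DES relative to WT-veh (y axis), with 1 symbol for each of 5 ways to scale the samples, and at the right the median of all genes tested. Odc1, Amd1 and Srm stay at or below -1.12 throughout and Sat1 stays above 0, while Sms and Oaz2 lie on both sides of 0.

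To examine ERα-independent effects of DES, αERKO-DES was compared with αERKO-veh. None of the 9 genes was called and none passed at any fold by limma, against 1.49% of all genes called and 2.85% at any fold. An unadjusted p under 0.05 was found for 3 of the 9 (*Odc1*, *Srm* and *Smox*, all higher with DES) and for 4042 genes in all. The median log2 change was 0.04 over the 9 genes and 0.02 over all. With sample weights all 3 passed at any fold, with limma adjusted p of 0.000814 for *Odc1*, 0.000325 for *Srm* and 0.000606 for *Smox*, and *Srm* was called. The sample weights, here and in the other comparisons, came from a fit that stopped before its tolerance was reached. Without WT-DES sample 1 or 2, αERKO-veh sample 3 or αERKO-DES sample 4, *Srm* was called higher (limma adjusted p from 0.0368 to 0.0495), and without WT-veh sample 4, WT-DES sample 1 or αERKO-veh sample 1 *Odc1* passed at any fold (0.0382 to 0.0445). In this comparison 5 of 8 skeletal muscle and 4 of 6 adipose markers were called lower in αERKO-DES, as were *Dcn* of 6 fibroblast markers (log2 change -0.59) and *Defb50* of 5 anterior prostate markers (-1.74), and no marker of the other lists was called. The part of these markers in the values above was not tested.

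Whether the change with DES differed between genotypes was tested as the change in WT minus that in αERKO. It did for 6 of 9 genes past both thresholds, all 6 more negative in WT, against 56.4% of all genes and 26.9% in that direction. At any fold 7 of 9 passed, against 71.5% of all genes. The difference was largest for *Srm* at -2.99 ± 0.24 on the log2 scale (SE, limma adjusted p = 9.47e-08), followed by *Odc1* at -1.92 ± 0.14 (4.47e-08 by the same test) and *Amd1* at -1.57 ± 0.18 (3.45e-06). It was -1.03 for *Oaz1*, -0.89 for *Smox* and -0.79 for *Azin1*, with limma adjusted p from 3.91e-05 to 0.000192. With quantile normalization or equal totals only 3 of these 6 stayed past both thresholds, since *Azin1*, *Oaz1* and *Smox* went under the fold. *Oaz1* was closest to 0 at -0.45 with quantile normalization and *Smox* at -0.34 with equal totals, and *Azin1* also missed the test with equal totals (-0.24, limma adjusted p = 0.141). *Sat1* differed the other way, by 0.33 ± 0.14 (limma adjusted p = 0.0495), a difference that missed the threshold with no minimum on FPKM (0.0595), with no variance trend (0.0561) and in 13 of the 16 fits that left out 1 sample (up to 0.103), all but those without WT-DES sample 1, αERKO-veh sample 2 or αERKO-DES sample 1. Under all 4 other scalings the same difference passed and was larger, up to 1.15 with quantile normalization, and its limma adjusted p went down to 2.38e-06 with a correction for transcript length. For *Sms* the difference was -0.20 (limma adjusted p = 0.104) and for *Oaz2* -0.21 (limma adjusted p = 0.0857), and neither passed. The difference of *Oaz2* turned to 0.25 with quantile normalization (limma adjusted p = 0.0450) and to 0.35 with equal totals (0.00723). That of *Sms* passed with quantile normalization (-0.53, limma adjusted p = 0.000335), a correction for transcript length (-0.25, 0.0447), sample weights (-0.26, 0.0132) and without αERKO-veh sample 3 (-0.26, 0.0372), and turned to 0.30 with equal totals (0.0473).

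**Figure D3:**
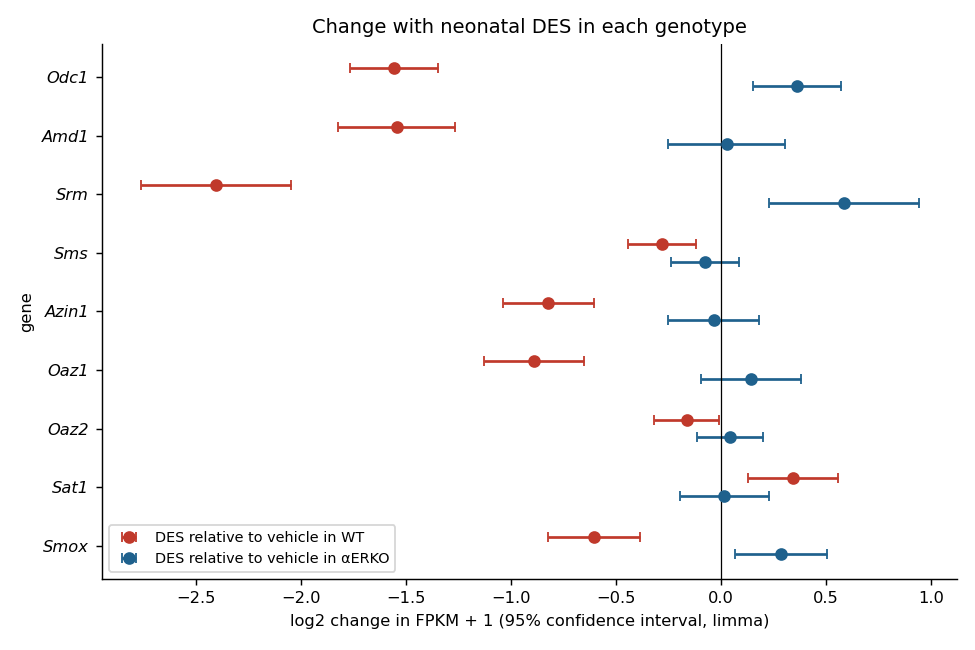
log2 change in FPKM + 1 with DES relative to vehicle (x axis) for each polyamine gene (y axis), in WT and in αERKO, with bars for the 95% confidence interval from limma. The WT points lie left of 0 for all genes but Sat1, down to -2.41 for Srm, while the αERKO points lie between -0.08 and 0.58.

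The genotypes were also compared directly in the DES-exposed animals, a comparison that includes any difference present without DES. αERKO-DES exceeded WT-DES 5.53-fold for *Srm*, 3.67-fold for *Odc1*, 2.59-fold for *Amd1*, 2.14-fold for *Azin1* and 1.89-fold for *Smox*, with limma adjusted p from 8.17e-10 to 1.57e-06. These 5 of 9 were called, all higher in αERKO-DES, against 53.4% of all genes called and 23.7% called higher. At any fold 7 of 9 passed, against 74% of all genes, since *Oaz1* was 1.49-fold higher (limma adjusted p = 0.00032, but 0.0986 with quantile normalization) and *Sat1* 1.48-fold lower (limma adjusted p = 0.000114). The samples did not overlap for 7 of 9 genes, as for 66.5% of all genes, and those of *Sms* and *Oaz2* did. *Oaz2*, at -0.11 on the log2 scale, passed as lower with quantile normalization (-0.45, limma adjusted p = 6.36e-05), equal totals (-0.49, 2.21e-05), a correction for transcript length (-0.24, 0.00108) and without αERKO-DES sample 1 (-0.18, 0.0314). *Sms*, at 0.17, passed as higher with quantile normalization (0.45, limma adjusted p = 4.51e-05), a correction for transcript length (0.21, 0.0173) and without WT-DES sample 3, αERKO-veh sample 1 or 3 or αERKO-DES sample 3 (0.0286 to 0.0499), but it turned to -0.17 with equal totals, which did not pass. *Sat1* reached -1.20 with quantile normalization, against -0.56. Of the markers, all 11 of leukocytes, all 6 of fibroblasts and all 6 of adipose tissue were called lower in αERKO-DES, while all 8 of SV secretion, 5 of 6 of epithelium, 5 of 6 of smooth muscle, 4 of 5 of the anterior prostate and 1 of 8 of skeletal muscle were called higher. Their part in these values was not tested. This comparison shares the WT-DES samples with the comparison in WT.

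Loss of ERα without DES was examined in αERKO-veh and WT-veh. None of the 9 genes was called, against 7.12% of all genes. At any fold 3 of 9 passed, all lower in αERKO-veh, against 26.1% of all genes and 15.2% lower, and 5 of 9 had an unadjusted p under 0.05, as did 6222 genes in all. The 3 were *Srm* (1.44-fold lower, limma adjusted p = 0.0306), *Oaz1* (1.38-fold lower, limma adjusted p = 0.0111) and *Oaz2* (1.26-fold lower, limma adjusted p = 0.00994). *Azin1* was 1.22-fold higher in mean FPKM with no overlap (limma adjusted p = 0.0543), and it passed at any fold under 8 alternatives, among them median-ratio scaling (limma adjusted p = 0.0419), quantile normalization (0.0181), equal totals (0.00799) and sample weights (0.00724). *Sat1* was 1.18-fold lower (limma adjusted p = 0.0904), and passed at any fold with sample weights (0.00666) and without αERKO-veh sample 1 (0.0342). The call of *Srm* at any fold was lost with quantile normalization (-0.31, limma adjusted p = 0.170), with equal totals (-0.35, 0.0739) and with a correction for transcript length (-0.27, 0.263), as was that of *Oaz2* under the same 3 scalings (limma adjusted p from 0.0711 to 0.159). Without WT-veh sample 3 or 4 or αERKO-veh sample 2 or 4, the limma adjusted p of *Srm* was between 0.0696 and 0.0983. Both comparisons with WT-veh here and above used the same WT-veh samples. *Odc1* differed by -0.13 on the log2 scale (95% confidence interval from -0.34 to 0.08) and *Amd1* by -0.23 (from -0.51 to 0.04), though *Amd1* passed at any fold with sample weights (-0.28, limma adjusted p = 0.00601). Of the markers, the leukocyte gene *Lyz2* was called lower in αERKO-veh (log2 change -0.81), and *Myl1* (2.89) and *Tnnt3* (3.39) of skeletal muscle and *Mki67* (0.62) of dividing cells higher, and their part in these values was not tested.

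Against WT-veh, αERKO-DES showed none of the 9 genes called, with 3.18% of all genes called, and 1 of 9 at any fold, with 8.06% of all genes. That gene was *Oaz2* (log2 change -0.28 ± 0.073, limma adjusted p = 0.0329), which was lost when any of WT-veh samples 1, 3 and 4 or αERKO-DES samples 2, 3 and 4 was left out (limma adjusted p up to 0.111), with a replicate block (0.0508), and with quantile normalization, equal totals or a correction for transcript length (0.0556 to 0.0769). Of the markers, 5 of 6 of adipose tissue, 3 of 6 of fibroblasts, 1 of 5 of the anterior prostate and 1 of 11 of leukocytes were called lower in αERKO-DES and none higher, and their part was not tested. An unadjusted p under 0.05 was found for 6 of the 9 and for 4228 genes in all. Under some alternatives others passed at any fold: *Oaz1* as lower under 5 (limma adjusted p from 0.0121 to 0.0490), *Smox* as higher under 3 (0.00889 to 0.0313), *Odc1* as higher and *Sat1* as lower under 2 each (0.0350 to 0.0416) and *Azin1* as higher with sample weights (0.0493). *Odc1* was 0.23 higher on the log2 scale (limma adjusted p = 0.154) and *Srm* 0.05 higher (95% confidence interval from -0.31 to 0.40).

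As FPKM is scaled by transcript length, levels were set side by side within a group. *Srm* had the highest mean of the 9 genes in WT-veh (161 ± 14.9 FPKM), αERKO-veh (111 ± 17.1) and αERKO-DES (167 ± 25.2), followed by *Sat1*, with an overlap between the samples of these genes only in αERKO-veh. In WT-DES the order was turned: *Sat1* was first at 127 ± 9.42 FPKM with no overlap with the next gene, *Oaz1* at 43.7 ± 3.58, and *Srm* came after *Oaz2* at 30.2 ± 8.07. *Sms* was last in each group without overlap, and between *Oaz1* and *Amd1* in WT-DES each gene overlapped its neighbours in the order.

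Ratios of FPKM within a sample described the balance between members, with no test. *Sat1* to *Odc1*, catabolic to synthetic, was 3.18, 2.78, 2.85 and 2.42 in WT-veh and 10.1, 13.6, 10.3 and 10.6 in WT-DES. It ranged over 1.68 to 2.41 in αERKO-DES and 2.35 to 2.76 in αERKO-veh, so that the WT-DES samples stood alone. *Odc1* to *Oaz1*, the enzyme to its antizyme, had a mean of 0.438 ± 0.0277 in WT-veh against 0.263 ± 0.0144 in WT-DES, and was 0.651 ± 0.0883 in αERKO-DES and 0.554 ± 0.0353 in αERKO-veh (SD, 4 samples each). Every WT-DES sample was lowest, and every αERKO sample was above every WT sample. *Azin1* to *Oaz1* was close in WT-veh (0.528 ± 0.0790) and WT-DES (0.545 ± 0.0202), with overlapping samples, and had a higher mean in αERKO-veh (0.895 ± 0.130) and αERKO-DES (0.792 ± 0.131), the latter overlapping WT-veh at 1 sample.

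**Figure D4:**
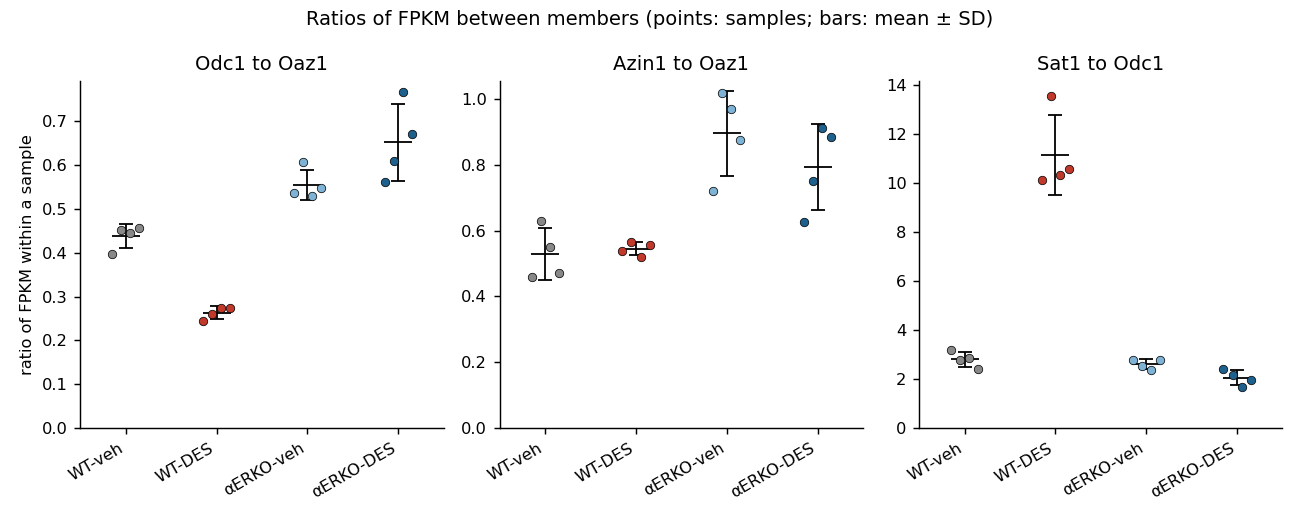
Ratios of FPKM within each sample (y axes, from 0) for Odc1 to Oaz1, Azin1 to Oaz1 and Sat1 to Odc1 in the 4 groups (x axes), with 1 point per sample and bars for the mean ± SD of 4 samples. Sat1 to Odc1 is 10.1 to 13.6 in WT-DES and at most 3.18 in the other groups.

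The other genes of the pathway were taken from 7 lists with 38 genes in the table, of which 33 passed the filter. In WT, 23 of 33 were called after DES, 7 higher and 16 lower, with a median log2 change of -0.54, against 52.7% of all genes called and 23.9% called lower. With equal totals 8 were called higher and 11 lower, where 6745 of the 15988 genes were called higher and 1831 lower. In αERKO none was called after DES, against 1.49% of all genes, and the values of *Sbp* and *Sbpl* there are given with the secretion genes.

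Transport genes were mostly lower in WT-DES. Of 6 transport genes 4 were called, all lower, against 52.7% of all genes called and 23.9% called lower, and these included *Slc7a1*, the carrier for arginine and ornithine (39.6 ± 5.80 to 11.2 ± 0.625 FPKM, log2 change -1.72, limma adjusted p = 1.50e-08). *Slc3a2*, the heavy chain of amino acid carriers, went from 140 to 55.2 FPKM in the mean and *Atp13a2*, a lysosomal polyamine exporter, from 59.6 to 30.9. With equal totals 3 transport genes were called lower and 1 higher, and *Atp13a2* was not called. Of 4 supply genes tested, *Aldh18a1*, which makes the precursor of proline and ornithine, was called lower (72.6 ± 5.32 to 18.2 ± 6.62 FPKM, log2 change -1.99, limma adjusted p = 6.44e-08). *Adc* (*Azin2*), an antizyme inhibitor relative, was called higher (3.41 ± 0.428 to 11.0 ± 0.716 FPKM, log2 change 1.45, limma adjusted p = 1.07e-07). *Paox*, the oxidase of acetylated polyamines, was called higher by a narrow margin, 4.46 to 6.70 FPKM or 1.503-fold (limma adjusted p = 0.0020), and was not called under 6 of 28 alternatives, among them leaving out WT-veh sample 1 or 2 or WT-DES sample 2.

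Of 7 genes of methionine use and methylthioadenosine salvage, 4 were called lower in WT-DES (*Mat2a*, *Mri1*, *Apip* and *Adi1*), against 52.7% of all genes called and 23.9% called lower, and none of the 7 was called with equal totals. The call of *Mat2a* (80.45, 88.68, 108.25 and 177.94 FPKM in WT-veh) was also lost without WT-veh sample 4 and with quantile normalization. Hypusination, the use of spermidine to modify the translation factor eIF5A, had 2 of 4 genes called lower and 1 higher, with the same shares over all genes and too few genes to describe a group. *Eif5a* itself had a mean of 178 ± 20.8 FPKM in WT-DES and 495 ± 28.4 in WT-veh, with 438 ± 55.7 in αERKO-DES and 358 ± 53.3 in αERKO-veh. Its log2 change in WT was -1.48 ± 0.12 (SE, limma adjusted p = 7.71e-08), and that of *Dohh*, which completes the modification, was -1.19 ± 0.11. *Eif5a2*, at 0.95 FPKM in WT-veh and 2.98 in WT-DES, was called higher.

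The 3 genes of polyamine-linked secretion were all called lower in WT-DES, against 52.7% of all genes called and 23.9% called lower. *Tgm4*, a prostate transglutaminase, was 1453 to 1856 FPKM in WT-veh and 152.33, 27.35, 6.62 and 66.60 in WT-DES (log2 change -5.41 ± 0.60, limma adjusted p = 1.38e-06). *Sbp*, a spermine-binding protein, was 58.81, 2.59, 2056.6 and 4367.5 FPKM in WT-veh and 2.47 to 17.6 in WT-DES (limma adjusted p = 0.0219). These WT-veh values overlapped WT-DES at the low end and reached far above it, and the calls of *Sbp* and its relative *Sbpl* (limma adjusted p = 0.0140) were lost in a model of the 2 groups alone and without WT-veh sample 3 or sample 4, and that of *Sbp* also without WT-DES sample 3 (limma adjusted p up to 0.0846). In αERKO, *Sbp* was 490.01, 85.87, 43.21 and 457.24 FPKM without DES and 4.92, 6.90, 4.33 and 4.46 with it, with no overlap, a log2 change of -4.82 ± 1.66 and a limma adjusted p of 0.103. *Sbpl* was 4.18 to 40.2 FPKM without DES and 0.22 to 0.42 with it (log2 change -3.62, limma adjusted p = 0.128). The difference between genotypes in the change with DES was 0.27 ± 2.34 for *Sbp* (limma adjusted p = 0.924) and -0.48 ± 1.94 for *Sbpl* (limma adjusted p = 0.834), while that of *Tgm4* was -5.49 ± 0.85 (limma adjusted p = 4.69e-05). *Tgm4* and *Sbp* are also among the anterior prostate markers.

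Of 5 regulators known to act on *Odc1*, *Myc*, a transcription factor that binds the *Odc1* gene, was called lower (55.4 ± 10.3 to 23.6 ± 3.62 FPKM, log2 change -1.19 ± 0.12), while its relative *Mycn*, at a low level, was called higher (0.318 ± 0.120 to 1.07 ± 0.355 FPKM, limma adjusted p = 0.000446), a call lost with quantile normalization. *Esr1* was called higher (log2 change 1.61, limma adjusted p = 2.69e-06). Without DES, 4 of the 33 genes tested in the 7 lists were called between αERKO-veh and WT-veh, all lower in αERKO-veh, against 7.12% of all genes called. These included *Esr1* (log2 change -0.94, limma adjusted p = 0.00741), the gene disrupted in αERKO, whose call thus followed from the genotype. The others were *Myc* (-0.57, 0.00739 by the same test), *Slc12a8* (-0.65, 0.0271) and *Mat2a* (-0.53, 0.0391). *Mat2a* was called under 15 of 28 alternatives, *Slc12a8* under 20, *Myc* under 21 and *Esr1* under all 28.

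**Figure D5:**
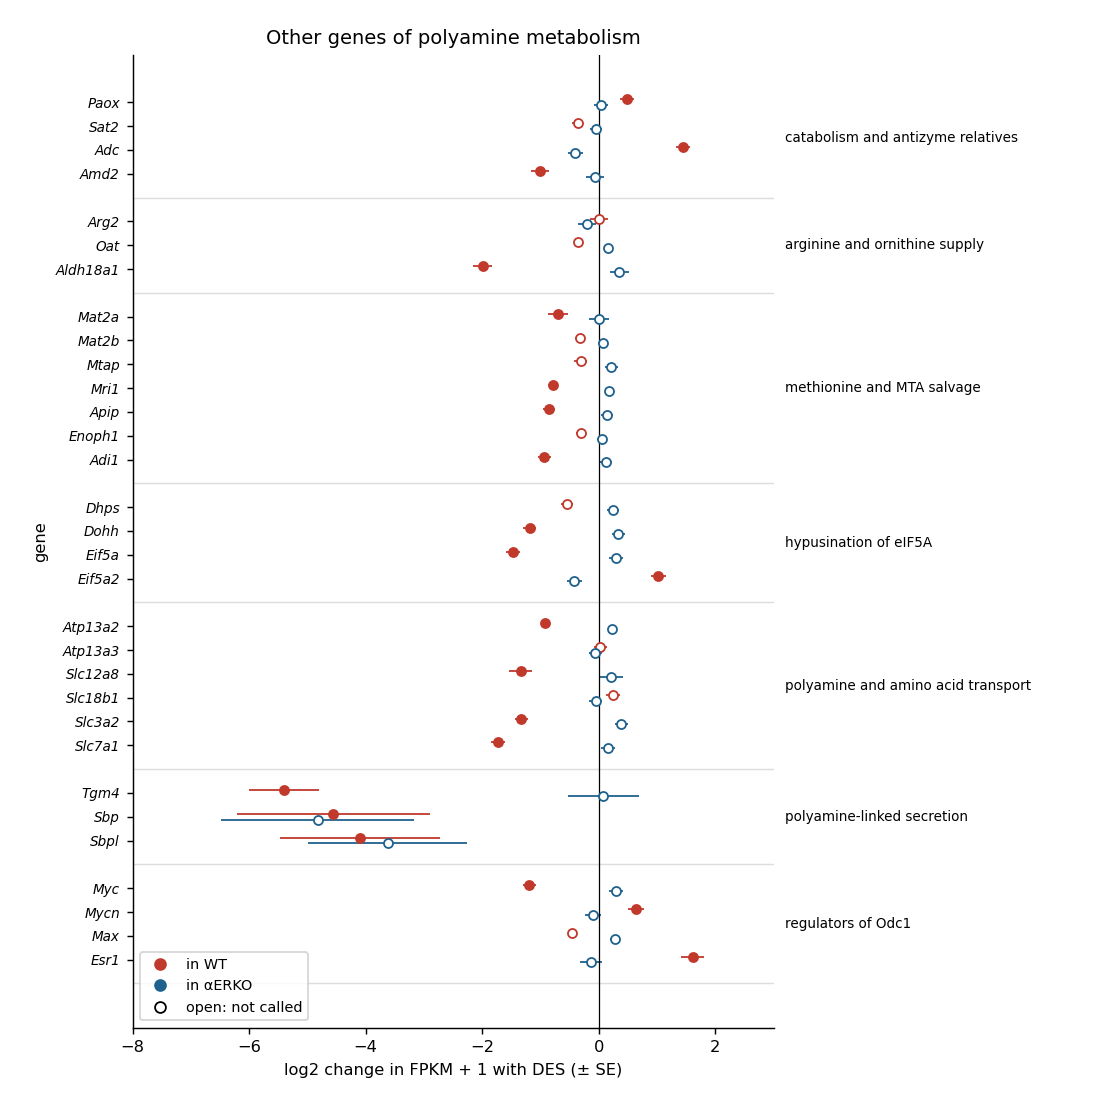
log2 change in FPKM + 1 with DES (x axis, ± SE) for 31 other polyamine-related genes (y axis, grouped by list), in WT and in αERKO, with filled points for genes called. In WT the points drawn run from 1.61 for Esr1 to -5.41 for Tgm4, with 5 called higher and 16 lower, and no point is filled for αERKO.

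The genes most like *Odc1* over the 16 samples, by Pearson's r of log2(FPKM + 1) among 10062 other genes, were *Srprb* (0.997), *Zcchc17* (0.994), *Surf4* (0.994), *Gmppb* (0.993) and *Preb* (0.993). Those most like *Sat1* were *Rab34* (0.953), *Renbp* (0.952), *Cox6b2* (0.95), *Pax8* (0.948) and *Cldn2* (0.947). These correlations are descriptions over samples of 4 groups, among which WT-DES stood apart for both genes. Between members, r was 0.979 for *Odc1* and *Srm*, 0.958 for *Odc1* and *Amd1* and -0.769 for *Odc1* and *Sat1*.

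Fragments may be shared with near-identical copies. By alignment of GENCODE M21 transcripts at 90% identity or more over at least 200 bases, *Odc1* had 14 similar genes, of which 2 were in the table, *Amd1* had 8, of which *Amd2* alone was in the table, *Sms* had 6, *Sat1* and *Oaz2* had 2 each, and *Srm*, *Oaz1* and *Azin1* had 1 each, most of them processed pseudogenes. *Smox* had none. The levels of the genes with copies are uncertain to that extent.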

How the data were processed

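RNA-seq of week 5 SVs was analysed in 16 samples of 4 groups, assigned from the sample titles. The deposited values are FPKM, which the authors computed with Cufflinks 2.0.2 from TopHat 2.0.4 alignments to mm10 (GRCm38) of paired-end 126-nt reads with a mean quality over 20. Any further scaling and the gene annotation of the table are not given in the sources used here. FPKM holds no fragment counts, so depth is unknown and no count test was run. Precision rests on how far samples of the same group differ. The main p-values rest on an estimate of that spread, for each gene, that the 4 groups share. This estimate may thus mix the spread between pools in WT-DES with that between single mice in the other groups.

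Of 31274 genes, 15988 exceeded a mean FPKM of 1 in some group. Their log2(FPKM + 1) values were fitted with limma 3.58.1 (R 4.3.3) in 1 model of the 16 samples with a variance trend, and p-values were adjusted by Benjamini-Hochberg over these genes. The pseudocount of 1 understates changes of low genes. Calls needed a 1.5-fold ratio of mean FPKM (for the difference between genotypes, on the log2 scale) and an adjusted p no higher than 0.05. The model was tested on simulated data. Intervals are 95% confidence intervals. Coordinates are from GENCODE M21 on GRCm38, similar transcripts from blastn 2.17.0, and promoters from RefSeq (GRCm38.p6). Alternatives were other pseudocounts, filters, fold rules, scalings, a correction of each sample for its lowess trend on transcript length (15048 genes, 94.1%, had one), no variance trend, sample weights, a replicate block, 2-group models and leaving out each sample. The 9 genes were all named, as were, from the other lists, the up to 5 largest rises and falls called in WT with a mean FPKM of at least 5, and all those called between αERKO-veh and WT-veh or between αERKO-DES and αERKO-veh. *Amd2*, *Slc3a2*, *Atp13a2*, *Mri1*, *Apip*, *Adi1*, *Eif5a*, *Eif5a2*, *Dohh*, *Mycn* and the markers *Lyz2*, *Myl1*, *Tnnt3*, *Mki67*, *Dcn* and *Defb50* were added after their values were seen. The rule also named 2 genes that are left out here. Members and lists were chosen with earlier results of these data known.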

Additional observations from a re-analysis of the deposited data

Results flagged for a closer look

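The difference between the changes with DES in WT and in αERKO passed the limma test for 7 of the 9 genes, which flagged them. It also passed at any fold for 71.5% of all genes, so passing is not particular to these genes. On the log2 scale the difference was -2.99 for *Srm*, -1.92 for *Odc1*, -1.57 for *Amd1*, -1.03 for *Oaz1*, -0.89 for *Smox*, -0.79 for *Azin1* and 0.33 for *Sat1*. That of *Sat1* missed the threshold in 13 of the 16 fits that left out a sample, and was larger under the other scalings.

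In each of 36 sets of a gene and a group, the gap from the highest or lowest sample to its neighbour was divided by the range of the 4 samples and compared with Dixon's 95% critical value. Chance flags about 1 in 20 such sets. *Odc1* in WT-DES had a ratio of 0.961 for its lowest sample, 10.36 FPKM against 11.82 to 11.88 in the other 3. *Azin1* in αERKO-veh had a ratio of 0.831 for its highest sample, 63.85 FPKM against 47.36 to 50.15.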

How the results depend on the processing

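The count of polyamine genes called in WT-DES against WT-veh was 6, all lower. It stayed within 1.5 times of that, from 4 with equal totals without the 20 most abundant genes to 8 with no fold threshold. With equal totals 3 were lower and 1 higher, and with no fold threshold 7 were lower and 1 higher. The count was from 5 to 6 when single samples were left out. In αERKO-veh against WT-veh the count of 0 became 3 with no fold threshold and was 0 to 1 when single samples were left out (1 without αERKO-veh sample 3). In αERKO-DES against αERKO-veh it became 1 with sample weights and was 0 to 1 when single samples were left out (1 without WT-DES sample 1 or 2, αERKO-veh sample 3 or αERKO-DES sample 4). In αERKO-DES against WT-veh it became 1 with no fold threshold. Leaving aside sign changes between values that both missed the threshold, changes that reversed were those of *Sms* in WT (0.11 with equal totals) and between genotypes (0.30 with equal totals), and of *Oaz2* in WT (0.19 with quantile normalization, 0.26 with equal totals) and between genotypes (0.25 and 0.35). The causes were not tested. Over all changes of the 9 genes, 1350 alternative values stayed on their side of the threshold, 54 passed it, 39 no longer passed it and 6 reversed. The weights of the samples came from a fit that stopped before its tolerance was reached. The correlations of deviations of same-numbered samples ran from -0.215 to 0.277 in 20 pairs, 3 of them over 0.1. Samples with different numbers were not compared, so whether replicate numbers pair the samples cannot be told. With a replicate block the count in WT stayed at 6, *Sat1* between genotypes had a limma adjusted p of 0.0601 and *Oaz2* in αERKO-DES against WT-veh one of 0.0508.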
